A study of Mus musculus and Rattus norvegicus with 85 samples.

Results

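The genes described here build and run the motile cilia of the airways. They are 39 genes chosen by symbol: Foxj1, the transcription factor of the motile cilia programme, and genes of the axoneme, the dynein arms, the radial spokes, intraflagellar transport and the ciliated cell. All probe sets annotated to these symbols were taken from the processed array values. On the mouse array 38 of the 39 genes had at least 1 probe set, 54 in all, and 36 genes passed the filter on low signal, of 13796 genes tested. On the rat array 23 genes had 24 probe sets and 20 genes passed, of 11010 genes tested. Spag6 and Spag17 on the mouse array and Spag16, Mns1 and Meig1 on the rat array did not pass, Sntn had no probe set on either array, and 16 genes had none on the rat array. All 20 genes measured in the rat were also measured in the mouse.

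The lungs came from female B6C3F1/Crl mice and female rats, given as F344/NCrl in the study design and as F334/NCrl in the strain labels, that were 10 weeks old at the start. The animals inhaled chloroprene, the chlorinated monomer of neoprene rubber, with their whole body in the chamber for 6 hours a day on 5 days a week, with air as the vehicle. Mice at 0.3, 2, 13 and 90 ppm and at 0 ppm were killed after 5 exposure days, and mice at 0.3, 2, 13 and 90 ppm after 15 exposure days. Rats at 5, 30, 90 and 200 ppm were killed after 5 or 15 exposure days. Each group held 5 animals, 45 mice and 40 rats in all, and each animal gave 1 array of total RNA from the whole right lung, kept in RNAlater. Mice at 0 ppm after 15 days and rats at 0 ppm were not analysed here, so the lowest concentration, 0.3 ppm in the mouse and 5 ppm in the rat, was the comparison group there. The 5-day mouse comparisons share the 0 ppm mice, the 15-day ones share the 0.3 ppm mice, and the rat comparisons of a time share the 5 ppm rats.

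Motile cilia beat on the multiciliated cells of the trachea and bronchi and carry mucus and trapped particles out of the lung. Each cilium holds an axoneme of microtubule doublets around a central pair, along which dynein arms pull, while radial spokes, a nexin-dynein regulatory complex and the central pair set the waveform. Foxj1 and the RFX factors switch on the genes of these parts when an airway cell becomes multiciliated, and intraflagellar transport carries the parts into the growing cilium. Several of the genes are known from primary ciliary dyskinesia, in which cilia are immotile or beat wrongly. In a whole lung, fewer or more ciliated cells and less or more RNA per ciliated cell cannot be told apart.

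RFX factors bind a motif with the core GTTGCC, and forkhead factors such as Foxj1 bind the core TGTTTAC. RefSeq promoter windows of 250 bases before to 50 bases after the gene start were searched on both strands for GTTGCC, for a paired RFX motif (GTTNCC, then 0 to 3 bases, then GGNAAC, which can overlap GTTGCC) and for TGTTTAC. Of the 39 genes, 35 had a window on build GRCm38.p6, and Foxj1, Rsph1, Rsph4a and Tppp3 had none. GTTGCC stood in a window of 21 of the 35 genes, 60%, against 14.1% of all 27025 genes with a window. The paired motif stood in 2 of the 35, Ccdc96 and Pifo, which is 5.71%, against 0.936% of all genes. TGTTTAC stood in 3 of the 35, Ak7, Cfap43 and Sntn, which is 8.57%, against 4.05% of all genes. Among genes higher after 5 days at 90 ppm 14 of 22 with a window held GTTGCC, and among measured genes that did not pass that test 5 of 10 did. A match is a stretch of letters and does not show that a factor binds there.

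The promoters of 5 genes are shown because they belong to members called at both times in the mouse and show the arrangements that were found: GTTGCC, in either direction, 1 time in Dynlrb2 (chr8:116504765-116505064, plus strand) and Ropn1l (chr15:31453640-31453939, minus strand), 2 times in Tekt1 (chr11:72361833-72362132, minus strand), the paired motif in Pifo (chr3:106001448-106001747, minus strand) and no match in Rsph9 (chr17:46144151-46144450, minus strand). Capitals mark the matches, which start 51 bases before the gene start in Dynlrb2, 20 in Ropn1l and Pifo, and 35 and 15 in Tekt1. In Pifo the end of the paired motif, GGCAAC, is also a match to GTTGCC on the other strand, and starts 12 bases before the gene start. Each runs 5′ to 3′ along the gene's own strand. Tekt1 (chr11:72361247-72361546) and Pifo (chr3:106014597-106014896) each have another window, not shown, without a match.
Dynlrb2: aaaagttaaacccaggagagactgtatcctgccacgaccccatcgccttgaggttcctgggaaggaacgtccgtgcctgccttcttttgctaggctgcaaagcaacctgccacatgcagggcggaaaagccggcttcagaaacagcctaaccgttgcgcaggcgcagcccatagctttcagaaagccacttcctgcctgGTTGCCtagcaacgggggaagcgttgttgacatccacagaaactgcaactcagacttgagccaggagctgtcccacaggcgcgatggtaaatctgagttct
Ropn1l: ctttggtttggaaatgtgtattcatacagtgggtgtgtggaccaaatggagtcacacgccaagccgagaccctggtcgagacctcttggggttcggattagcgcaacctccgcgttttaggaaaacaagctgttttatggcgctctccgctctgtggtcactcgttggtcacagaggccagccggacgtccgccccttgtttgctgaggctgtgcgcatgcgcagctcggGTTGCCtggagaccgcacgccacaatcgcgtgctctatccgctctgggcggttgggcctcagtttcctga
Tekt1: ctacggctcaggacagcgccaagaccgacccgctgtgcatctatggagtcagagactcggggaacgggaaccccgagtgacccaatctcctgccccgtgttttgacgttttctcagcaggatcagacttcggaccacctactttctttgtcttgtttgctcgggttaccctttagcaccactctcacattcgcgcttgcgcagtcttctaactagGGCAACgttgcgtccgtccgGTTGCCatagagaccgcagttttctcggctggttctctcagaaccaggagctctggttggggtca
Pifo: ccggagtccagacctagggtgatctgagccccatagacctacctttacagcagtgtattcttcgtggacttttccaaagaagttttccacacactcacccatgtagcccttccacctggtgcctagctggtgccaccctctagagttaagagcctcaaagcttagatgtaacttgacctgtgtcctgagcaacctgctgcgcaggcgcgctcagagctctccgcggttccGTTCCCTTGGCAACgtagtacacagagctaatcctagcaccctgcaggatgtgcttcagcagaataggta
Rsph9: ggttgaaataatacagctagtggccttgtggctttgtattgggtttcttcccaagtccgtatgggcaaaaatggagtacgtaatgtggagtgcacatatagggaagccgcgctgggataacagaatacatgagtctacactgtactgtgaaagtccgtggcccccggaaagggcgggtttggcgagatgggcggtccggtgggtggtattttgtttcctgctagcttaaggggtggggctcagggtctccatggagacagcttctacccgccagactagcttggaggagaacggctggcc

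All values are log2 signals as deposited, so a difference of 1 is a doubling of signal. For a gene with several probe sets the brightest one that passed the filter is given, and signals of different genes are not compared, since probe sets differ in brightness. Changes are differences of group means with their standard error from limma fitted over all genes of a species, and a gene is called where its Benjamini-Hochberg adjusted p over all tested genes was below 0.05. Lung markers were bright on every array, with the surfactant gene Sftpc at 15.22 to 15.33 in mice and 14.98 to 15.11 in rats. Of the ciliated cell markers, Foxj1, Tekt1, Dnai1, Rsph1 and Tppp3 were measured in both species. For 9 of the 15-day mice the title and a duration field of the labels disagree, and the title was used. The 9 include mouse 128 of the 0.3 ppm group and mouse 179 of the 90 ppm group, which stood high for the members in their groups, and 6 mice, 5 of them of 15 days, carry a letter after the animal number. Counts of called members at 90 ppm after 15 days are also given without these mice. RNA integrity numbers were given for 78 of the 85 arrays.

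After 5 days at 90 ppm, motile cilia genes were higher in the mouse lung than at 0 ppm. Of the 36 measured members 24 rose and 0 fell, against 8.99% of all tested genes that rose and 7.35% that fell, and 35 of the 36 estimates lay above 0. The median change of the members was 0.53, against 0.01 over all genes. For 21 members each of the 5 mice at 90 ppm lay above all 5 mice at 0 ppm, as did 7.99% of all genes. Among the called members the largest changes were those of Meig1, Zmynd10, Ropn1l, Dnai2 and Foxj1, each close to a doubling. Secretory cell genes moved as well: 7 of 15 club cell genes rose, with a median change of 0.41 and a summed club cell signal of 195349 to 214205 at 90 ppm against 170846 to 192105 at 0 ppm. With the mean of the club cell genes of each array as a covariate 8 members were called in place of 24: Cfap52, Dynlrb2, Meig1, Ropn1l, Rsph9, Tekt1, Tekt4 and Zmynd10. When the RNA integrity number was a covariate, which was given for 2 of the 5 mice at 0 ppm, 15 were called. The part of club cells and of RNA quality in the result was not tested.

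**Figure D1:**
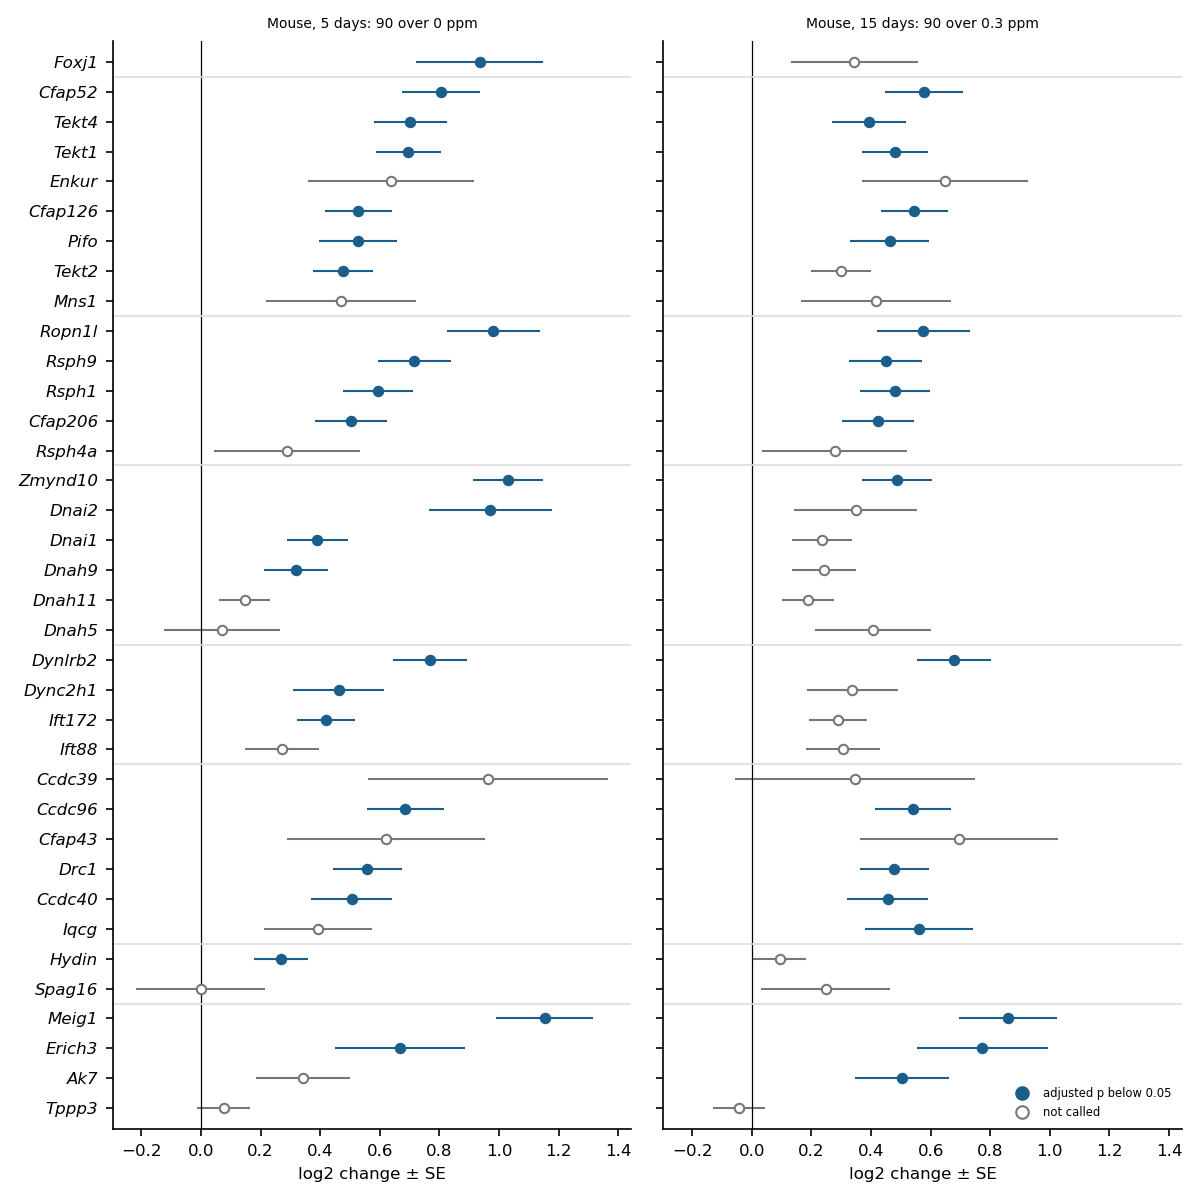
Log2 change of the 36 measured members in the mouse, grouped by role, with bars of 1 standard error: 90 against 0 ppm after 5 days and 90 against 0.3 ppm after 15 days, 5 mice a group. Filled points passed the test, 24 after 5 days and 18 after 15 days, and nearly all points lie to the right of 0.

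Foxj1, the master regulator of motile cilia, stood at 9.99, 10.03, 10.10, 10.31 and 10.48 in the 5 mice at 90 ppm, against 8.81, 9.32, 9.35, 9.36 and 9.39 in the 5 mice at 0 ppm. The groups did not overlap, and mouse 103 at 0 ppm lay well under the other 4. Foxj1 rose by 0.93 ± 0.21, or 1.91-fold (adjusted p = 0.0015). The mice at 2 ppm, at 9.90, 9.92, 10.03, 10.27 and 10.30, and at 13 ppm, at 9.73, 9.75, 9.87, 10.21 and 10.64, were also all above the 0 ppm mice, with changes of 0.84 ± 0.21 (adjusted p = 0.038) and 0.79 ± 0.21 (adjusted p = 0.047). At 0.3 ppm the mean was 9.70, a change of 0.46 ± 0.21 that did not pass (adjusted p = 1). Against the 0.3 ppm mice in place of the 0 ppm mice the change of Foxj1 at 90 ppm was 0.48 (adjusted p = 0.16), and with the club cell covariate it was 0.49 (adjusted p = 0.22). After 15 days Foxj1 was at 9.39, 9.71, 10.09, 10.73 and 10.84 at 90 ppm, against 9.37, 9.41, 9.94, 9.97 and 10.35 at 0.3 ppm. Those groups overlapped and the change of 0.34 ± 0.21 (adjusted p = 0.41) did not pass. The 13 ppm mice of that time were closer together, at 10.30, 10.36, 10.46, 10.47 and 10.64, with a change of 0.64 ± 0.21 (adjusted p = 0.56) over the 0.3 ppm mice.

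Among the proteins inside the microtubule doublets 6 of 8 members rose after 5 days and 5 of 8 after 15 days. Tekt1, a tektin, one of the filament proteins that run along the doublet wall, was at 8.90, 8.92, 9.20, 9.30 and 9.44 at 90 ppm after 5 days, against 8.25, 8.39, 8.50, 8.56 and 8.59 at 0 ppm. The groups did not overlap. After 15 days Tekt1 was at 8.84, 8.89, 9.13, 9.20 and 9.34 at 90 ppm, against 8.31, 8.49, 8.52, 8.68 and 9.01 at 0.3 ppm, and 2 of the 5 mice at 90 ppm lay under the highest mouse at 0.3 ppm. The related Tekt4 rose by 0.70 ± 0.12 and 0.39 ± 0.12 at the 2 times. Its 15-day call was kept in 8 of 12 alternatives and lost without any 1 of 7 single mice (125, 126, 127 or 129 at 0.3 ppm, or 177, 180 or 181 at 90 ppm). The third tektin, Tekt2, rose by 0.48 ± 0.10 after 5 days and had a change of 0.30 ± 0.10 (adjusted p = 0.06) after 15 days. Cfap52, a protein of the doublet lumen, stood at 9.46, 9.55, 9.73, 9.85 and 10.23 at 90 ppm after 5 days, against 8.55, 8.67, 9.13, 9.16 and 9.29 at 0 ppm. The 5 mice at 90 ppm again lay above all 5 others, and the change was 0.80 ± 0.13, or 1.75-fold (adjusted p = 1.9e-05). After 15 days its groups were also apart, with 9.69, 9.74, 9.74, 9.76 and 9.88 at 90 ppm and 8.88, 9.04, 9.08, 9.33 and 9.61 at 0.3 ppm, a change of 0.58 ± 0.13 (adjusted p = 0.0032). Cfap126, which lies along the doublets, rose by 0.53 ± 0.11 and 0.55 ± 0.11, and Pifo, which acts at the ciliary base, by 0.53 ± 0.13 and 0.46 ± 0.13. Enkur (0.64 ± 0.28 and 0.65 ± 0.28) and Mns1 (0.47 ± 0.25 and 0.42 ± 0.25), both doublet proteins, did not pass at either time, with wide errors.

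Among the radial spoke genes 4 of 5 rose at each time, the same 4 genes. Ropn1l, of the spoke stalk, was at 7.86, 8.01, 8.07, 8.46 and 8.69 at 90 ppm after 5 days, against 7.07, 7.16, 7.17, 7.38 and 7.42 at 0 ppm, with no overlap. The change was 0.98 ± 0.16, or 1.97-fold (adjusted p = 1.5e-05). After 15 days Ropn1l was at 7.54, 7.91, 7.99, 8.15 and 8.15 at 90 ppm, against 7.10, 7.25, 7.26, 7.28 and 7.96 at 0.3 ppm, where mouse 128 alone reached the range of the exposed mice. Its 15-day change was 0.58 ± 0.16 (adjusted p = 0.015), a call that was lost without mouse 125 at 0.3 ppm or mouse 180 at 90 ppm. On the other, dimmer kept probe set of Ropn1l the changes were 0.71 ± 0.13 after 5 days and 0.32 ± 0.13 after 15 days. Rsph9, of the spoke head, had 10.13, 10.27, 10.32, 10.47 and 10.88 at 90 ppm after 5 days, against 9.51, 9.59, 9.73, 9.78 and 9.89 at 0 ppm. Its groups did not overlap after 5 days, and after 15 days the change was 0.45 ± 0.12 (adjusted p = 0.016). Rsph1, also of the spoke head, rose by 0.59 ± 0.12 and 0.48 ± 0.12, and Cfap206, at the base of a spoke, by 0.50 ± 0.12 and 0.42 ± 0.12. The head protein Rsph4a had a change of 0.29 ± 0.24 (adjusted p = 0.49) and 0.28 ± 0.24 (adjusted p = 0.62).

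The outer dynein arm genes were split after 5 days, with 4 of 6 higher, and 1 of 6 was higher after 15 days. Zmynd10, a cytoplasmic factor that assembles dynein arms before they enter the cilium, had 9.23, 9.43, 9.56, 9.79 and 10.02 at 90 ppm after 5 days, against 8.38, 8.41, 8.66, 8.69 and 8.75 at 0 ppm. The gap between the groups was wide, and the rise of 1.03 ± 0.12, or 2.04-fold, had the smallest p among the members (adjusted p = 1.8e-08). After 15 days Zmynd10 was at 9.03, 9.04, 9.30, 9.30 and 9.36 at 90 ppm, against 8.43, 8.60, 8.67, 8.81 and 9.10 at 0.3 ppm, a change of 0.49 ± 0.12 (adjusted p = 0.0056). Dnai2, an intermediate chain, had 9.65, 9.66, 9.71, 10.01 and 10.39 at 90 ppm after 5 days, against 8.05, 8.87, 9.03, 9.16 and 9.47 at 0 ppm, with 1 low mouse at 0 ppm. Its change was 0.97 ± 0.21 (adjusted p = 0.00071) on that probe set, while its other kept probe set was at -0.04 ± 0.09, so the result for Dnai2 depends on the probe set. The other intermediate chain, Dnai1, rose by 0.39 ± 0.10 after 5 days and had a change of 0.23 ± 0.10 (adjusted p = 0.17) after 15 days. Of the heavy chains, the motors of the arm, Dnah9 rose by 0.32 ± 0.11 (adjusted p = 0.034), a call that was lost when any 1 of 5 single mice (103, 105, 165, 166 or 168) was left out and kept in 8 of 13 alternatives, while Dnah11, with 0.15 ± 0.09 (adjusted p = 0.27), and Dnah5, with 0.07 ± 0.19 (adjusted p = 0.87), did not pass.

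Of the intraflagellar transport genes 3 of 4 rose after 5 days and 1 of 4 after 15 days. Dynlrb2, a dynein light chain of the roadblock family, had 12.01, 12.07, 12.12, 12.20 and 12.34 at 90 ppm after 5 days, against 11.07, 11.23, 11.44, 11.56 and 11.59 at 0 ppm, and 12.04, 12.06, 12.14, 12.24 and 12.48 at 90 ppm after 15 days, against 11.38, 11.38, 11.43, 11.47 and 11.91 at 0.3 ppm. The groups were apart at both times, with changes of 0.77 ± 0.12 (adjusted p = 1.6e-05) and 0.68 ± 0.12 (adjusted p = 0.00024). It was the only member called after 15 days with the club cell covariate. Ift172, of the transport complex that carries cargo to the tip, was at 10.30, 10.37, 10.50, 10.52 and 10.65 at 90 ppm after 5 days, against 9.91, 9.93, 10.04, 10.17 and 10.20 at 0 ppm. Those values did not overlap, with a change of 0.42 ± 0.10 (adjusted p = 0.0018), and the 15-day change of 0.29 ± 0.10 (adjusted p = 0.056) did not pass. Dync2h1, the heavy chain of the motor that returns cargo to the base, rose by 0.46 ± 0.15 (adjusted p = 0.031) after 5 days, a call lost without any 1 of 6 single mice (103, 104, 105, 166, 167 or 168) and kept in 9 of 13 alternatives, and had a change of 0.34 ± 0.15 after 15 days, which did not pass. Ift88, of the same complex as Ift172 and needed by primary as well as motile cilia, had a change of 0.27 ± 0.12 (adjusted p = 0.14) and 0.31 ± 0.12 (adjusted p = 0.14).

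Of the 6 genes of the molecular ruler, the nexin-dynein regulatory complex and the inner arm tethers, 3 rose after 5 days and 4 after 15 days. Ccdc96, which in Tetrahymena lies near the regulatory complex, had 7.73, 7.99, 8.02, 8.25 and 8.29 at 90 ppm after 5 days, against 7.20, 7.28, 7.41, 7.41 and 7.55 at 0 ppm. No value overlapped, and the changes were 0.69 ± 0.13 (adjusted p = 0.00014) and, after 15 days, 0.54 ± 0.13 (adjusted p = 0.0046). Drc1, a subunit of the regulatory complex, had 8.90, 8.99, 9.01, 9.22 and 9.30 at 90 ppm after 5 days, against 8.35, 8.47, 8.57, 8.60 and 8.62 at 0 ppm, again without overlap. It rose by 0.56 ± 0.12 and 0.48 ± 0.12 at the 2 times. Ccdc40, a subunit of the ruler that sets the repeat along the doublet, rose by 0.51 ± 0.14 and 0.46 ± 0.14. Iqcg, also of the regulatory complex, had a change of 0.39 ± 0.18 (adjusted p = 0.14) after 5 days and rose by 0.56 ± 0.18 (adjusted p = 0.045) after 15 days. That call of Iqcg was kept in 3 of 11 alternatives and lost without any 1 of 7 single mice (125, 126, 127 or 129 at 0.3 ppm, or 178, 179 or 180 at 90 ppm). The mean signal of Iqcg over all mice was 6.67, at the filter level of 6.67, so this gene was measured close to the low signal limit.

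Ccdc39, the partner of Ccdc40 in the ruler, had a change of 0.96 ± 0.40 (adjusted p = 0.1) after 5 days, close to that of Zmynd10 but with a standard error over 3 times as wide. Its 5 mice at 90 ppm were at 7.57, 8.02, 8.62, 8.90 and 9.05, against 6.79, 7.05, 7.73, 7.84 and 7.93 at 0 ppm, so that values of 1 group spread over more than a log2 unit. Cfap43, a tether of the inner arms, was alike, with 0.62 ± 0.33 and, after 15 days, 0.70 ± 0.33 on the brighter of its kept probe sets. On the other kept one its changes were 0.51 ± 0.11 and 0.61 ± 0.11, with narrower errors, so the result for Cfap43 depends on the probe set. These genes, with Enkur, Mns1 and Rsph4a, had the widest spread within groups, with pooled SDs of 0.67 for Ccdc39, 0.55 for Cfap43, 0.46 for Enkur, 0.42 for Mns1 and 0.41 for Rsph4a, against a median of 0.21 over the members and 0.16 over all genes. After 15 days Ccdc39 was at 7.0, 7.27, 8.13, 8.42 and 9.29 at 90 ppm, against 7.49, 7.53, 7.58, 7.68 and 8.10 at 0.3 ppm. The exposed mice lay on both sides of the others, 3 above all of them and 2 below all of them, and Cfap43, Mns1 and Rsph4a showed the same counts.

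Of the central pair genes, Hydin, whose protein forms a projection of the central pair, had 8.17, 8.20, 8.22, 8.32 and 8.39 at 90 ppm after 5 days, against 7.72, 7.95, 8.06, 8.09 and 8.15 at 0 ppm. The groups were apart by little, with a change of 0.27 ± 0.09 (adjusted p = 0.034), and after 15 days its change was 0.09 ± 0.09 (adjusted p = 0.66). The 5-day call was lost without mouse 103 or 105 at 0 ppm or mouse 165 or 168 at 90 ppm, and against the 0.3 ppm mice the change was 0.14 (adjusted p = 0.35). Spag16, another central pair protein, had a change of -0.00 ± 0.22 (adjusted p = 1) and 0.25 ± 0.22 (adjusted p = 0.61). On its other, dimmer kept probe set the changes were 0.18 ± 0.10 and 0.28 ± 0.10, with narrower errors.

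Of the other genes of ciliated cells 2 of 4 rose after 5 days and 3 of 4 after 15 days. Meig1, known from the building of the sperm tail, had 9.02, 9.26, 9.39, 9.45 and 9.52 at 90 ppm after 5 days, against 7.79, 7.92, 8.25, 8.36 and 8.55 at 0 ppm. The groups did not overlap, and the change of 1.15 ± 0.16, or 2.22-fold (adjusted p = 1.9e-06), was the largest among the members. After 15 days Meig1 was at 8.82, 9.0, 9.24, 9.31 and 9.40 at 90 ppm, against 8.06, 8.08, 8.18, 8.20 and 8.97 at 0.3 ppm, where mouse 128 stood at 8.97 and the other 4 mice under 8.25, and the change was 0.86 ± 0.16 (adjusted p = 0.00043). Erich3, a protein of cilia, was at 7.62, 7.91, 8.18, 8.31 and 8.35 at 90 ppm after 5 days, against 6.85, 7.05, 7.63, 7.71 and 7.79 at 0 ppm, and 4 of the 5 exposed mice lay above all the others. Its changes were 0.67 ± 0.22 (adjusted p = 0.03) and 0.77 ± 0.22 (adjusted p = 0.021). The 5-day call of Erich3 was kept in 8 of 13 alternatives, and it was lost against the 0.3 ppm mice, with each of the 3 covariates, with the arrays of 5 days alone, and without any 1 of 5 single mice (103 or 105 at 0 ppm, or 166, 167 or 168 at 90 ppm). Its 15-day call was lost with the club cell covariate, without the mice of conflicting duration, and without mouse 179 or 180 at 90 ppm. Ak7, an adenylate kinase of cilia, had a change of 0.34 ± 0.16 (adjusted p = 0.15) and rose after 15 days by 0.50 ± 0.16 (adjusted p = 0.04). That call of Ak7 was kept in 8 of 12 alternatives and lost without any 1 of 7 single mice (125, 126, 127 or 129 at 0.3 ppm, or 178, 179 or 180 at 90 ppm). Tppp3, a tubulin-binding protein that marks ciliated cells, had a change of 0.08 ± 0.09 (adjusted p = 0.64) and -0.04 ± 0.09 (adjusted p = 0.87).

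At lower concentrations after 5 days fewer members passed, though most estimates were positive. At 2 ppm 3 members rose and 0 fell, against 1.07% of all genes that rose and 0.138% that fell: Foxj1, Dnah9 (0.42 ± 0.11) and Drc1 (0.44 ± 0.12). At 13 ppm 5 rose and 0 fell, against 1.17% of all genes that rose and 0.13% that fell: Foxj1, Rsph9 (0.48 ± 0.12), Drc1 (0.44 ± 0.12), Meig1 (0.63 ± 0.16) and Zmynd10 (0.52 ± 0.12). At 0.3 ppm limma called 0 members and 0% of all genes, with 1 member and 514 of all genes at an unadjusted p under 0.05. The median change over the members was 0.14 at 0.3 ppm, 0.31 at 2 ppm, 0.38 at 13 ppm and 0.53 at 90 ppm. The calls at 2 and 13 ppm rested on single mice. Leaving out 1 mouse at a time gave 0 to 6 calls at 2 ppm (0 without mouse 102, 103, 105, 136 or 137, and 6 without 104) and 0 to 10 at 13 ppm (0 without mouse 103, 105 or 151, and 10 without 149), and against the 0.3 ppm mice neither concentration had a call.

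Group means were in rising order over all concentrations for 15 of the 36 members after 5 days, against 3.59% of all genes, and for 15 after 15 days, against 5.12% of all genes. After 5 days 34 members had their lowest mean at 0 ppm, against 26.3% of all genes, and 27 their highest at 90 ppm, against 33.1%. Tekt1 had means of 8.46, 8.60, 8.76, 8.82 and 9.15 at 0, 0.3, 2, 13 and 90 ppm. Zmynd10 had means of 8.58, 8.69, 8.95, 9.10 and 9.61 in the same order. Both series of means were in rising order, with neighbouring concentrations often within the spread between mice.

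**Figure D2:**
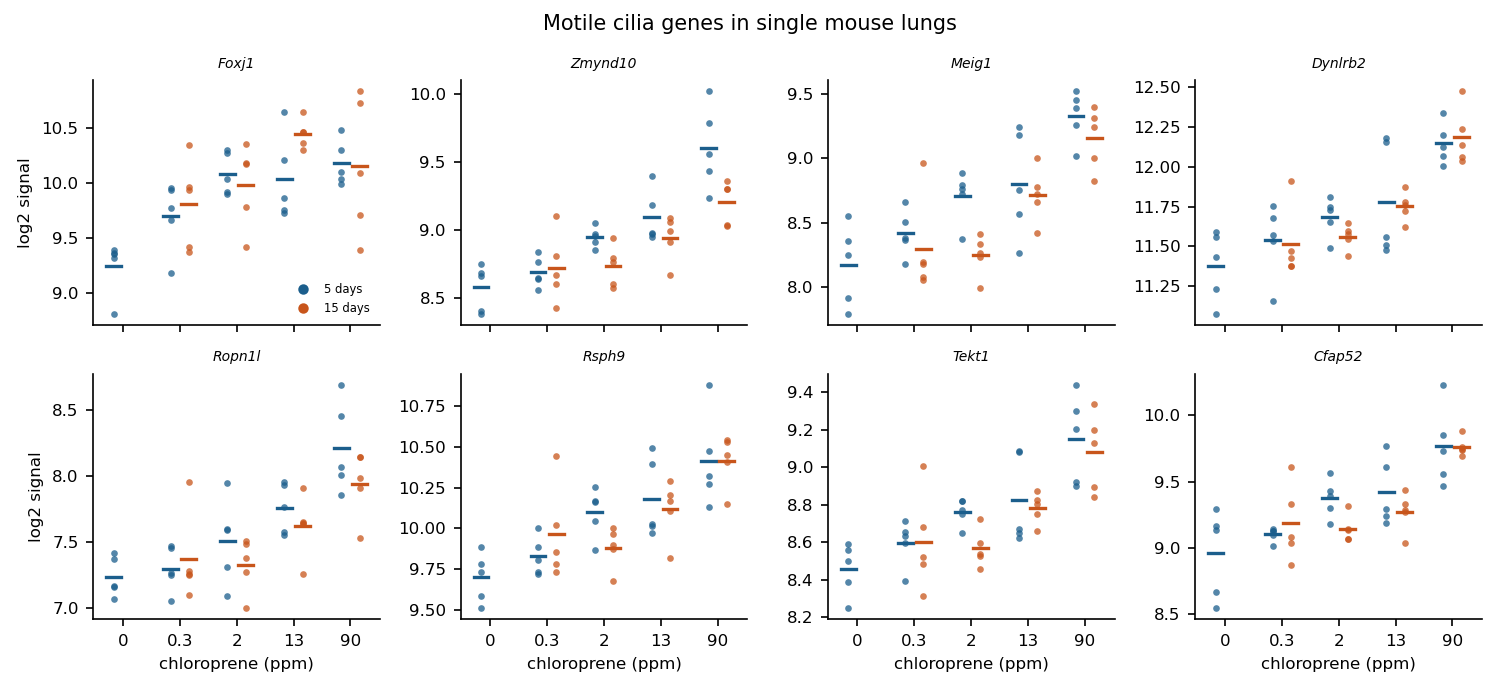
Log2 signal of 8 members in each mouse (points) with group means (lines), by chloroprene concentration in ppm, after 5 and after 15 days, 5 mice a group. The 90 ppm mice lie above the 0 ppm mice after 5 days in all 8 panels, and mice 151 and 154 are the highest of the 13 ppm mice of 5 days in each.

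After 15 days at 90 ppm 18 of 36 members were higher than at 0.3 ppm and 0 were lower, against 4.68% of all genes that were higher and 3.29% that were lower, and the median change was 0.44, against -0.01 over all genes. For 3 members, Dynlrb2, Cfap52 and Erich3, every mouse at 90 ppm lay above all those at 0.3 ppm, as did 2.27% of all genes. Of the 36 members 16 were called at both times and 8 after 5 days alone (Foxj1, Dnah9, Dnai1, Dnai2, Dync2h1, Hydin, Ift172 and Tekt2). Ak7 and Iqcg were called after 15 days alone, and 10 at neither time. The 15-day count depended on single mice, with 9 calls without mouse 180 and 20 without mouse 128, and 9 of the 18 calls held whichever mouse was left out: Ccdc96, Cfap126, Cfap52, Drc1, Dynlrb2, Meig1, Rsph1, Tekt1 and Zmynd10. Without the mice of conflicting duration 14 members were called, and the calls of Zmynd10, Cfap206, Ak7, Iqcg and Erich3 were lost. That fit kept only mice 125 and 129 at 0.3 ppm and mice 177 and 180 at 90 ppm. Without the mice whose titles carry a letter 8 were called, and the calls of Rsph1, Rsph9, Ropn1l, Cfap52, Cfap206, Pifo, Tekt4, Zmynd10, Ak7 and Iqcg were lost. Mice 125, 128 and 129 at 0.3 ppm and mice 177, 179 and 180 at 90 ppm remained in that fit. At 2 and at 13 ppm after 15 days limma called 0 members, with 0 and 3 at an unadjusted p under 0.05, against 515 and 801 of the 13796 genes, and 0.109% and 0.326% of all genes were called in either direction. Club cell genes were again higher, with 4 of 15 called and a summed signal of 195291 to 220819 at 90 ppm against 176677 to 200248 at 0.3 ppm, and with that covariate 1 member was called. The part of club cells was not tested.

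That a gene was called at 1 time alone does not show that the times differ. In the test of the difference itself, the change of 90 over 0.3 ppm after 15 days minus that after 5 days, limma called 0 of the 36 members, and 0.0435% of all genes in either direction. Zmynd10 alone among the members had an unadjusted p under 0.05, against 882 of the 13796 genes, with -0.43 ± 0.17 (adjusted p = 0.74). Between 15 and 5 days at 90 ppm, 0 members and 0.123% of all genes were called, and Zmynd10 had a change of -0.40 ± 0.12 (adjusted p = 0.16). Between 15 and 5 days at 0.3 ppm, 0 members and 0% of all genes were called, with Dnah5 alone at an unadjusted p under 0.05, against 1898 of the 13796 genes.

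The same mice were high or low for many members. As a description with no test, each member was centred over all mice and the 36 values of a mouse were averaged. After 5 days the group means of this average were -0.26, -0.09, 0.08, 0.14 and 0.30 at 0, 0.3, 2, 13 and 90 ppm. After 15 days they were -0.18, -0.20, -0.05 and 0.25 at 0.3, 2, 13 and 90 ppm. All 5 mice at 90 ppm after 5 days, at 0.16 to 0.49, lay above all mice at 0 ppm, at -0.52 to -0.07. The 0 ppm mice were split, with mice 103 and 105 at -0.47 and -0.52 and the other 3 between -0.12 and -0.07. Mouse 103 was the lowest of that group for 15 of 36 members and mouse 105 for 20. At 13 ppm after 5 days mice 151 and 154 were at 0.53 and 0.45, and the other 3 between -0.13 and -0.06. At 90 ppm after 15 days mice 179 and 180 were at 0.49 and 0.52, and the other 3 between 0.01 and 0.12. At 0.3 ppm mouse 117 was the lowest of its 5-day group for 28 of 36 members, and mouse 128 the highest of its 15-day group for 32.

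**Figure D3:**
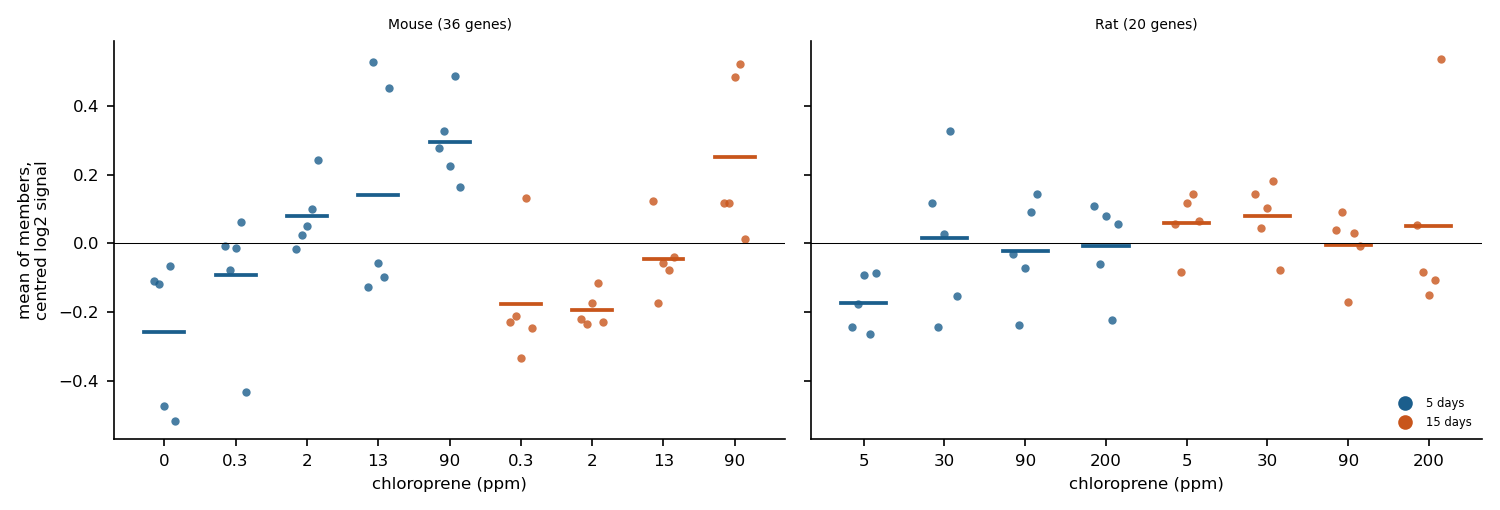
Mean over the measured members of the log2 signal centred over all arrays of a species, 1 point an animal with the group mean as a line, by concentration in ppm and time, for 36 members in mice and 20 in rats. After 5 days the mouse group means lie at -0.26, -0.09, 0.08, 0.14 and 0.30 at 0, 0.3, 2, 13 and 90 ppm. The rat group means lie at -0.17, 0.02, -0.02 and -0.01 at 5, 30, 90 and 200 ppm after 5 days, and between -0.004 and 0.08 after 15 days.

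Other genes of motile cilia, from a separate list of 101 symbols with none of the members, were also higher in the mouse. Of 65 measured 38 rose and 0 fell after 5 days at 90 ppm, and 28 rose and 0 fell after 15 days, with median changes of 0.46 and 0.37. After 5 days Lrrc23, a radial spoke protein, rose by 1.32 ± 0.11, and Dnaaf1, a dynein arm assembly factor, by 0.73 ± 0.13. Deup1, which makes the deuterosomes on which centrioles multiply, rose by 1.52 ± 0.13, and Ccno, a cyclin needed for that step, by 1.55 ± 0.14 (adjusted p = 1.4e-11 and 9.2e-11). After 15 days Deup1 had a change of 0.30 ± 0.13 and Ccno of 0.08 ± 0.14, neither called, and the change of 90 over 0.3 ppm differed between the times by -1.12 ± 0.18 for Deup1 and -1.42 ± 0.20 for Ccno (adjusted p = 0.0018 and 0.00012). They were 2 of only 6 genes called in that difference over the whole array, next to the cell cycle genes Ccna1, Cdk1, Aurka and Cdc20. Without the mice of conflicting duration neither was called. That fit kept only mice 125 and 129 at 0.3 ppm and mice 177 and 180 at 90 ppm of the 15-day groups. Of the RFX factors, Rfx2 had a change of 0.12 ± 0.12 and Rfx3 of 0.25 ± 0.19 after 5 days, neither called.

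Lists of other cilia and other cell types were counted in the same mouse comparisons, 90 over 0 ppm after 5 days and 90 over 0.3 ppm after 15 days. Of all genes 8.99% rose and 7.35% fell after 5 days, and 4.68% rose and 3.29% fell after 15 days. Of 23 other intraflagellar transport genes 6 rose and 1 fell after 5 days, and 7 rose and 0 fell after 15 days. Of 23 genes of the primary cilium, found on most cells, 5 and 3 rose and 0 fell at either time. Of 10 mucous and gland genes 2 rose at each time, and of 4 measured neuroendocrine genes 2. Of 8 basal, 9 airway smooth muscle and 4 cartilage genes limma called 0 at either time, with 0, 1 and 0 at an unadjusted p under 0.05 after 5 days and 0, 1 and 0 after 15 days. Alveolar type 2 genes had 0 rises with 4 falls and then 2 falls among 11, and alveolar type 1 genes 0 rises with 2 falls at each time among 10. Mesothelial genes had 2 rises after 5 days and 0 after 15 days among 8, and of 4 measured testis genes 1, Spata18, rose at each time. The club cell markers Scgb1a1 and Cyp2f2 had changes of -0.10 ± 0.04 and 0.06 ± 0.04 after 5 days and did not pass, and Scgb3a2 rose by 0.26 ± 0.05. Over all mice Scgb1a1 was at 15.10 to 15.32, Cyp2f2 at 14.79 to 14.99 and Scgb3a2 at 14.52 to 14.98. The highest mouse value of any probe set was 15.34. Whether an upper limit of the signal held these markers back was not tested.

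In the rat members were called in both directions. After 5 days at 200 ppm 5 of 20 members were higher than at 5 ppm, against 4.68% of all genes, and 1 was lower, against 31.6% of all genes. The median change was 0.14 over the members and -0.14 over all genes. At 30 and at 90 ppm after 5 days the median change of the members over 5 ppm was 0.13, close to that at 200 ppm. The markers of another tissue layer moved in the same rats: 6 of 6 mesothelial genes were lower, with a summed signal of 11213 to 12275 at 200 ppm against 14805 to 20298 at 5 ppm. Of 38 other motile cilia genes measured 5 were higher and 3 lower. Club cell genes had 3 rises among 8, with a summed signal of 48055 to 57797 at 200 ppm against 41052 to 44839 at 5 ppm. RNA integrity numbers were 7.1 to 8.7 in 4 rats at 200 ppm and 7.3 to 8.5 at 5 ppm. With that number as a covariate 3 members were called, and with the club cell mean 2 were higher and 5 lower. Whether these differences took part in the members' changes was not tested.

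Foxj1, which rose in mice, was at 9.03, 9.11, 9.12, 9.27 and 9.29 in rats at 200 ppm after 5 days, against 8.85, 9.03, 9.03, 9.05 and 9.11 at 5 ppm. The groups overlapped, and the change of 0.15 ± 0.12 (adjusted p = 0.3) did not pass. Tekt1 was at 8.55, 8.84, 9.01, 9.01 and 9.14 at 200 ppm, against 8.58, 8.73, 8.82, 8.83 and 8.87 at 5 ppm. The groups overlapped, and the change was 0.15 ± 0.13 (adjusted p = 0.37). Its relative Tekt2 had 8.92, 9.17, 9.28, 9.28 and 9.37 at 200 ppm, against 9.38, 9.47, 9.50, 9.71 and 9.96 at 5 ppm. All 5 exposed rats lay below the others, as for 13.5% of all genes, and Tekt2 fell, with -0.40 ± 0.12 (adjusted p = 0.013). The spoke genes Ropn1l, with -0.22 ± 0.23 (adjusted p = 0.44), Rsph9, with 0.07 ± 0.15 (adjusted p = 0.69), and Rsph1, with 0.14 ± 0.15 (adjusted p = 0.44), did not pass. Zmynd10, which had the smallest p among the members in mice, had a change of -0.05 ± 0.13 (adjusted p = 0.78) in rats.

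Dynlrb2 was at 11.12, 11.43, 11.63, 11.65 and 11.66 in rats at 200 ppm after 5 days, against 10.90, 10.96, 11.16, 11.18 and 11.35 at 5 ppm. Of the exposed rats 4 lay above all the others, and the rise of 0.39 ± 0.14 (adjusted p = 0.029) was smaller than that in mice at 90 ppm, a difference that was not tested. This call of Dynlrb2 was lost with the RNA integrity number or the club cell covariate, with the arrays of 5 days alone, and without any 1 of 5 single rats (265, 267 or 269 at 200 ppm, or 217 or 221 at 5 ppm). Ccdc96 had 6.64, 6.95, 7.18, 7.20 and 7.30 at 200 ppm, against 6.04, 6.29, 6.48, 6.74 and 6.81 at 5 ppm, and rose by 0.58 ± 0.16 (adjusted p = 0.0073). Erich3 had 6.80, 6.83, 6.87, 7.04 and 7.14 at 200 ppm, against 6.0, 6.05, 6.20, 6.54 and 6.55 at 5 ppm. For Erich3 the groups did not overlap, as for 2.19% of all genes above, and the rise was 0.67 ± 0.21 (adjusted p = 0.015). All Erich3 values at 5 ppm lay under the filter level of 6.65, so this gene was measured close to the low signal limit. For Ccdc96 the values of 6.04, 6.29 and 6.48 at 5 ppm and 6.64 at 200 ppm were also under that level. Dync2h1 rose by 0.59 ± 0.18 (adjusted p = 0.015) and Ak7 by 0.57 ± 0.19 (adjusted p = 0.025). The call of Ak7 was lost with the same 3 alternatives and without rat 269, 217 or 221, and those of Erich3, Dync2h1 and Tekt2 were lost without rat 217. Of the alternatives, the club cell covariate ended the call of Erich3 and the RNA integrity number that of Tekt2. The other measured members, Cfap126, Tekt4, Dnai1, Ccdc40, Drc1, Ift172, Ift88 and Tppp3, had changes between -0.11 (Tppp3) and 0.33 (Ift88), and none of these 8 passed.

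**Figure D4:**
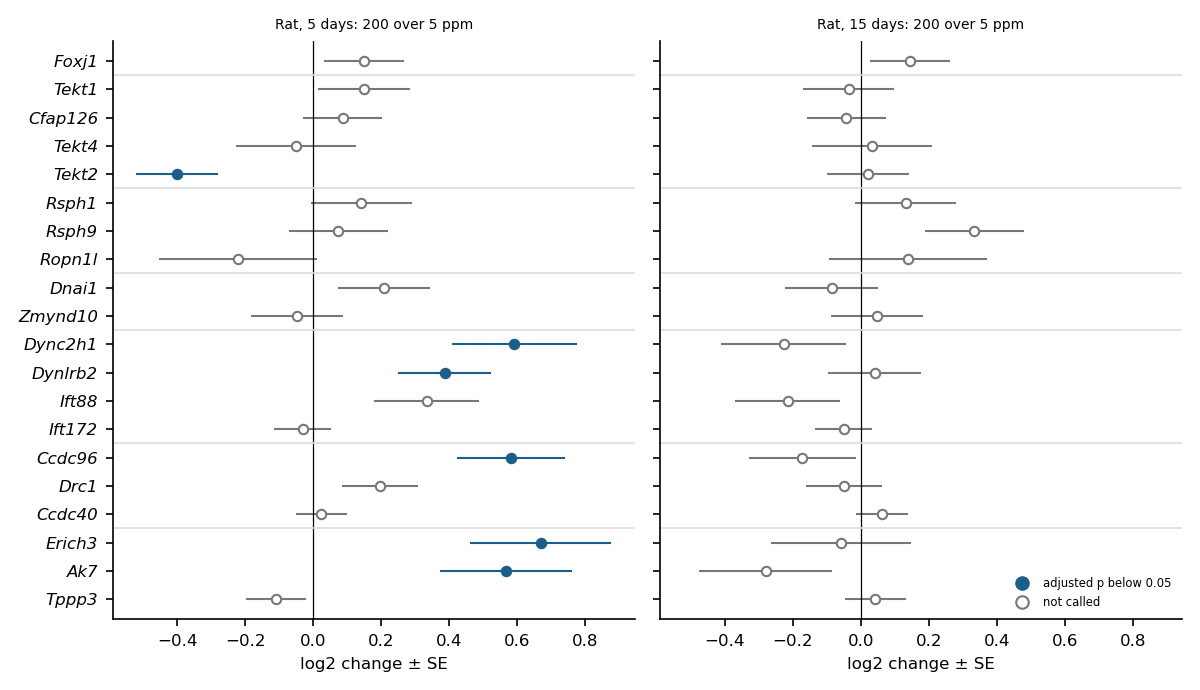
Log2 change of the 20 members measured in the rat, grouped by role, with bars of 1 standard error: 200 against 5 ppm after 5 days and after 15 days, 5 rats a group. Filled points passed the test, 5 higher and 1 lower after 5 days and 0 after 15 days, and most points lie within 0.4 of 0.

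At 90 ppm after 5 days 3 rat members were higher than at 5 ppm, against 4.13% of all genes: Dync2h1 (0.67 ± 0.18), Ak7 (0.53 ± 0.19) and Ccdc96 (0.45 ± 0.16). At 30 ppm limma called 0, with 6 at an unadjusted p under 0.05, against 1477 of the 11010 genes, and 0% of all genes called in either direction. Leaving out 1 rat at a time gave 1 call (without rat 217) to 7 (without rat 222) at 200 ppm, 0 (217) to 6 (222) at 90 ppm and 0 to 5 (239) at 30 ppm. With the club cell mean as a covariate 1 member was higher and 5 were lower at 90 ppm, and with the RNA integrity number 0 were called. That number was 9.2 to 9.3 at 90 ppm, against 7.3 to 8.5 at 5 ppm. After 15 days limma called 0 members at 30, 90 and 200 ppm, with 3, 1 and 1 of 20 at an unadjusted p under 0.05, against 2831, 1490 and 1972 of the 11010 genes. Of all genes 1.66%, 0.309% and 0.817% were called in either direction at these 3 concentrations. Between 15 and 5 days at 200 ppm limma called 0 members, with 6 of 20 at an unadjusted p under 0.05, against 4580 of the 11010 genes, and 0.127% of all genes. At 5 ppm limma called 0 members between the times, and 18 of 20 estimates lay above 0, against 40.7% of all genes. Their median was 0.24, and 7 of 20 had an unadjusted p under 0.05, against 893 of the 11010 genes. Group means rose at every concentration step for 3 of 20 members after 5 days and 0 after 15 days, against 4.77% and 5.73% of all genes. The part of the 5 ppm rats of 5 days in the 5-day changes was not tested. Rat 282, at 200 ppm after 15 days, was the highest of its group for 17 of 20 members, with Foxj1 at 9.99 and the other 4 rats between 9.05 and 9.31. The titles of rats 239, 269 and 282 have another form than those of the other rats, and its meaning is not given. The array of rat 239 had a median correlation of 0.91 with its group, against 0.99 for each other rat there. For rat 282 it was 0.95, against 0.94 to 0.97 in the other rats of its group.

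In the test of the difference between times, 3 rat members had a lower change after 15 days than after 5 days, as did 2.62% of all genes. The difference was -0.85 ± 0.27 (adjusted p = 0.045) for Ak7, -0.82 ± 0.26 (adjusted p = 0.044) for Dync2h1 and -0.75 ± 0.22 (adjusted p = 0.038) for Ccdc96. Ak7 was at 7.65, 7.86, 7.91, 8.01 and 8.47 at 200 ppm after 15 days, against 7.98, 8.27, 8.29, 8.37 and 8.40 at 5 ppm, and at 7.83, 8.22, 8.25, 8.30 and 8.40 at 200 ppm after 5 days, against 7.08, 7.50, 7.69, 7.85 and 8.06 at 5 ppm. Its means after 15 days were 7.98 at 200 ppm and 8.26 at 5 ppm, and after 5 days 8.20 at 200 ppm and 7.63 at 5 ppm, so that the 5 ppm rats of 5 days were the lowest of the 4 groups. These 3 calls were lost with the 3′ to 5′ signal difference of an array, or its RNA integrity number, as a covariate, and 0 members were called when any 1 of 11 single rats was left out. Without rat 222, at 5 ppm after 5 days, 1 was higher and 5 lower. RNA integrity numbers were 8.1 to 9.2 at 200 ppm and 8.5 to 9.4 at 5 ppm after 15 days, against 7.1 to 8.7 at 200 ppm and 7.3 to 8.5 at 5 ppm after 5 days, and their part in the difference was not tested.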

How the data were processed

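Total RNA of 45 mouse and 40 rat right lungs was measured on Affymetrix arrays, 1 whole-genome design per species, per the labels. The deposited tables hold log2 signals per probe set that the authors brought to a common level between arrays. The summarising and normalizing method is not given in the sources used here. Values ran between 3.47 and 15.3 in mice and between 3.07 and 15.1 in rats.

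Probe sets were named from the platform annotation where it gave 1 symbol, 34958 of 45101 in the mouse and 20832 of 31099 in the rat, with control probe sets and those of several or no symbols left out. Rat names are those of that annotation. The filter on low signal kept probe sets above 6.67 in mice and 6.65 in rats, the 40th percentile of all values, on at least 5 arrays. The kept probe set with the highest mean stood for a gene. Each species was fitted with limma 3.58.1 in R 4.3.3 (statmod 1.5.0) on all arrays, with 1 mean per group, empirical Bayes moderation and Benjamini-Hochberg adjustment over all genes of a comparison, at 0.05. The fits were tested on simulated data. Counts and figures were made with Python 3.11.15, pandas 2.3.3, numpy 2.4.6, scipy 1.17.1 and matplotlib 3.10.9. Arrays carry no depth, and precision is limited by 5 animals a group, each a separate animal per the labels.

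The titles gave the species, concentration and days that define the groups. Per-animal values are given for Foxj1 and up to 2 members per role with the smallest p among those called at 90 over 0 ppm after 5 days in mice. Values of Ccdc39, Tekt2, Ak7, Rfx2 and Rfx3 and of the cell cycle genes of the difference between times were chosen after they were seen. The members, the gene lists and the tests were chosen with earlier results of these data known. Alternatives were quantile normalization, no filter or one at the 60th percentile, the mean of a gene's probe sets, each probe set alone, and the RNA integrity number, the 3′ to 5′ signal difference or the club cell mean as a covariate. Arrays of the same time alone, a variance trend with robust moderation, the 0.3 ppm mice in place of the 0 ppm mice, leaving out the mice of conflicting duration or lettered titles, and leaving out each animal were also tried.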

Additional observations from a re-analysis of the deposited data

Results flagged for a closer look

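In 12 of 223 sets of 5 values tested, 1 animal stood far from the other 4. A set is 1 gene, or the average over members, in 1 group. Chance alone flags about 1 in 20 sets, close to the share found. The sets reuse the same animals and are not independent, so the flags are a description only. Mouse 128, at 0.3 ppm for 15 days, was the high animal of its group in 6 of the 12: Hydin at 8.37, Dynlrb2 at 11.91, Meig1 at 8.97, Dnai2 at 9.78 and Ropn1l at 7.96 on the log2 scale, and the average over members at 0.13. This mouse is 1 of the 9 whose title and duration field disagree, and without it 20 members were called at 90 over 0.3 ppm after 15 days in place of 18. Mouse 117 at 0.3 ppm was the low animal of the average in its 5-day group, at -0.43. Mouse 103 at 0 ppm was low for Foxj1, at 8.81, and mouse 161 at 13 ppm for 15 days was low for Dnai2, at 9.13. In rats, 219 at 5 ppm for 5 days was low for Drc1, at 7.52, 228 at 5 ppm for 15 days was high for Zmynd10, at 8.99, and 282 at 200 ppm for 15 days was high for Foxj1, at 9.99.

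The change of 200 over 5 ppm in rats differed between 15 and 5 days, by the limma test of the difference, for Ak7 (-0.85), Dync2h1 (-0.82) and Ccdc96 (-0.75), each lower after 15 days.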

How the results depend on the processing

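No paired analysis was possible because each animal has a number of its own and no number is shared between groups. With the club cell mean as a covariate the counts of called members were 8 in mice at 90 over 0 ppm after 5 days (24 in the report), 1 at 90 over 0.3 ppm after 15 days (18), 0 at 13 ppm (5) and 0 at 2 ppm (3) over 0 ppm after 5 days, 1 at 90 ppm between times (0), and in rats 7 at 200 ppm (6) and 6 at 90 ppm (3) over 5 ppm after 5 days, where the direction of most calls turned to lower, and 5 at 200 ppm between times (0). In the 5-day mouse comparison Dnah9 turned to -0.02 with it. With the RNA integrity number the counts were 15, 0 and 0 at 90, 13 and 2 ppm in mice after 5 days, 3 and 0 at 200 and 90 ppm in rats after 5 days, and 0 in the rat difference between times (3). With the 3′ to 5′ difference they were 1 at 13 ppm and 0 at 2 ppm in mice, 5 at 90 ppm in rats and 0 in the rat difference. Against 0.3 ppm mice they were 0 at 13 and 0 at 2 ppm. Each probe set on its own gave 2 and 1 at 13 and 2 ppm, no filter gave 3 at 13 ppm and 1 in the rat difference, quantile normalization gave 1 at 2 ppm, and the arrays of the same time gave 1 at 90 ppm in rats. Without the mice of conflicting duration the counts were 8 at 13 ppm and 5 at 2 ppm after 5 days, and without the lettered mice 8 at 90 over 0.3 ppm after 15 days. Where the construction of an alternative does not show it, the cause was not tested.

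Leaving out 1 animal at a time gave 20 to 24 calls in mice at 90 over 0 ppm after 5 days, 9 (without 180) to 20 at 90 over 0.3 ppm after 15 days, 0 to 10 at 13 ppm and 0 to 6 at 2 ppm after 5 days, and 0 to 1 (without 167) at 90 ppm between times. In rats it gave 1 to 7 at 200 ppm, 0 to 6 at 90 ppm and 0 to 5 (without 239) at 30 ppm after 5 days, 0 to 5 (without 279; 3 without 281 and 2 without 267) at 200 ppm between times, and 0 to 6 in the difference between times. The other counts were 0 in the report and under the alternatives run. Arrays limit what can be seen for dim members, 2 of which in mice and 3 in rats did not pass the filter.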
